A study of Mus musculus with 6 samples.

Results

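The replication-dependent histone genes encode the bulk of the H1, H2A, H2B, H3 and H4 proteins that package newly copied DNA. They were taken as the probe sets whose gene symbol belongs to the clustered histone families: H1f1 to H1f5, H2ac, H2bc, H2bu, H3c and H4c with a number. The rule found 35 genes among the 23279 named genes of the array, 4 of class H1, 9 of H2A, 12 of H2B, 7 of H3 and 3 of H4. RefSeq lists 64 genes with such symbols, and the other 29 were not analysed here. The symbol alone chose the members, but the family was picked for description with earlier results of these 6 arrays in view, among them that some members vary with replicate number. The set was thus selected on the array values themselves, and the members' levels and differences are given as a description.

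Histone genes of this kind are unusual in that most have no introns and end their mRNA in a stem-loop in place of a poly(A) tail. Their mRNA accumulates in S phase, when DNA is copied, and is degraded when copying stops. Dividing myoblasts make it, and cells that leave the cycle to become muscle fibres largely cease to, although several histone genes, H1f2 and some H2b genes among them, can also make polyadenylated mRNA outside S phase. Replacement histones such as H3.3 and H2A.Z are instead made throughout the cycle.

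The arrays measured 6 cultures of primary mouse myoblasts prepared from limb muscle, strain C57bl6N as labelled, 3 control and 3 activated. All 6 carried a tamoxifen-inducible Cre recombinase driven by Pax7, a transcription factor of muscle stem cells, and a single beta-catenin allele with loxP sites around exon 3. After 5 passages in growth medium with serum and bFGF, cells were switched to low-serum differentiation medium for 24 hours, per the labels' protocols. The cells were treated while differentiating. Activated cultures received 4-OH tamoxifen in ethanol, which lets Cre remove exon 3 and leaves an active form of beta-catenin, and control cultures received ethanol alone. Cre acts only in cells that express it, and the share of recombined cells, animal age and number of animals were not given in the sources used here. In its description the series reports a PCR and protein check of the activation, and calls the 3 cultures of each condition independent. Values below are listed in the order of replicates 1, 2 and 3, the controls first and the activated arrays after them. The study asks how active beta-catenin alters gene expression in these cells.

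Values are log2 expression per probe set, so a difference of 1 is a 2-fold change. The 6 arrays had medians between 4.08 and 4.37 over all genes. The 7 myogenic markers examined (Pax7, Myod1, Myf5, Myog, Des, Cdh15 and Myh3) had a median between 8.0 and 9.79 per array. Of the 7, 6 were higher in activated cultures (40.3% of all genes were). After repeated quantile normalization 2 of the 7 were lower, with Myod1 at -0.20 in place of 0.16. The medians of the 3 measured leukocyte markers lay between 3.28 and 4.14 and those of the 4 endothelial markers between 2.8 and 3.32, in each array below its median over all genes. Those of the 5 fibroblast markers (4.08 to 5.14) and the 4 smooth muscle markers (6.15 to 7.34) were close to it or above it. Control replicate 3 correlated least with the rest (mean r over all genes 0.896, against 0.923 to 0.946), so the main results are also given without it. In bulk RNA, fewer cells in S phase and less histone mRNA per such cell cannot be told apart. Histone genes of a class are close copies, so a probe set may also read its relatives, and the way probes were assigned is not given in the sources used here. Whether the labelling of RNA relied on a poly(A) tail was not analysed here. How far a value reads the tailless histone mRNA is thus not known.

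Promoter sequence was available from RefSeq (GRCm38.p6) for 31 of the 35 genes, in 32 windows, 1 gene having 2. Those of 6 genes and of a pair of shared promoters are shown because the values below turn on these genes. Each single-gene stretch is the 150 bases before the annotated start, on the gene's own strand. Capitals mark the TATA box (TATAAA), the CCAAT box (CCAAT) and the octamer (ATTTGCAT), the site of Oct-1 in H2b promoters, each on either strand. No 2 marked matches overlapped.

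H3c14 (chr3:96246535-96246684, + strand): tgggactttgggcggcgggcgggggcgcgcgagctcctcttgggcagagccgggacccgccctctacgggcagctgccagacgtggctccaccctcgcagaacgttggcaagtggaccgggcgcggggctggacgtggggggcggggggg

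H3c15 (chr3:96239128-96239277, - strand): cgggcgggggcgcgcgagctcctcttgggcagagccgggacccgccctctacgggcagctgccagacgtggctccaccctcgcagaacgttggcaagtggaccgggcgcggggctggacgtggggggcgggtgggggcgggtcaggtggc

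H2ac20 (chr3:96220881-96221030, - strand): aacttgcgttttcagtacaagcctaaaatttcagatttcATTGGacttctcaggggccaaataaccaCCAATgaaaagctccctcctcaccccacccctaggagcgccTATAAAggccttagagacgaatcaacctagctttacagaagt

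H2bc3 (chr13:23746584-23746733, + strand): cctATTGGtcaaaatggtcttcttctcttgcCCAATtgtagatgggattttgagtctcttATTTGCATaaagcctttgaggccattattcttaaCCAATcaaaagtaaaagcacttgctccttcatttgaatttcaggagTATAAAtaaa

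H4c8 (chr13:23530894-23531043, + strand): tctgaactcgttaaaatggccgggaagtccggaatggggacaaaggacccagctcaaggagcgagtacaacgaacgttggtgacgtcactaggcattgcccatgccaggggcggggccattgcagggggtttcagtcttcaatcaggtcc

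H2bu2 (chr11:58948761-58948910, + strand): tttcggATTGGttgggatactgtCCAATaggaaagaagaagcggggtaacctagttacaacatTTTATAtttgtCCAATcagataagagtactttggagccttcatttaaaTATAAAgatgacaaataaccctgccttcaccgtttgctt

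In 3 pairs whose promoters were available, an H2A and an H2B gene, both measured, start back to back. For H2ac8/H2bc8 and H2ac22/H2bc22 the whole stretch between the starts is given on the + strand. The H2A gene reads away to the left and the H2B gene to the right. The stretch between H2ac1 and H2bc1 is not shown.

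H2ac8/H2bc8 (chr13:23571221-23571399): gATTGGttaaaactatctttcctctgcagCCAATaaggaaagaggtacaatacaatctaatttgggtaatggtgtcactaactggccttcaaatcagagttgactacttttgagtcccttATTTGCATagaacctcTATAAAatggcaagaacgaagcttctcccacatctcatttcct

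H2ac22/H2bc22 (chr13:21787249-21787487): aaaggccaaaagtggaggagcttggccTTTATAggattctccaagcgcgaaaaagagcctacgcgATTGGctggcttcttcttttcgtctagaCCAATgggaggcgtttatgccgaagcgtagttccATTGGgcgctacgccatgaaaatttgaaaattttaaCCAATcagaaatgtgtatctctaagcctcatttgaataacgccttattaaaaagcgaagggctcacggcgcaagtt

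Over the 250 bases before each start, the CCAAT box was present in 27 of the 32 member windows (84.4%), against 33.8% of all 32851 promoter windows in the RefSeq table. The TATA box was present in 21 (65.6%, against 12.4%) and the octamer in 10 (31.3%, against 1.6%), of which 5 windows belonged to H2A and 5 to H2B genes, some shared by a back-to-back pair. The windows of H3c14, H3c15 and H4c8 held none of the 3 motifs. The H3c14 and H3c15 promoters were near copies: an unbroken run of 231 bases was the same in both and was found in no other window of the table. Their printed stretches were 76.0% and 76.7% G or C, against a median of 54.0% over all windows, while that of H2bc3 was 34.7%. A match of letters describes the sequence and does not show that a factor binds there.

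The 35 genes varied more between arrays than most genes, and they did not shift together. The gap between a member's highest and lowest array had a median of 2.07 and ran from 0.45 for H2bc1 to 6.03 for H2ac11, against a median of 1.00 over all genes. Of all genes, 11.9% had a gap above 2.07. Activated cultures were higher than controls in 14 members and lower in 21, with a median log2 difference of -0.13 (-0.08 over all genes, of which 59.7% were lower, and 0.04 after median centring, a shift of scale that moves each difference up alike). By class, 8 of 9 H2A genes were lower, with a median of -0.73, while H2B genes were 6 and 6 (median -0.01), H3 genes 4 higher and 3 lower (0.07), H1 genes 2 and 2 (0.12) and H4 genes 1 higher and 2 lower (-0.04). The H2A median stayed between -0.73 and -0.60 after repeated quantile normalization, median centring or cyclic loess. The H2B and H4 medians crossed 0 under at least 1 of these scalings, and 4 single genes changed sign (H2ac1, H2ac21, H2bc22 and H4c9).

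No member passed an adjusted p of 0.05 in limma, where 0% of all genes did, and none passed with the replicate number as a block, where 0.12% of all genes passed as higher and 0.0129% as lower. At an unadjusted p under 0.05, 1 member was higher (H3c15; 4.44% of all genes) and 3 were lower (H2ac20, H2bc3 and H2bc15; 3.42% of all genes). With the block these counts were 5 higher (9.63% of all genes) and 4 lower (7.01%). Each activated array lay above each control array in 2 members, H2bc8 and H3c15 (5.4% of all genes), and below in 2, H2bc3 and H2bc15 (7.4%). In limma the adjusted p of the members ran from 0.325 to 0.986.

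**Figure D1:**
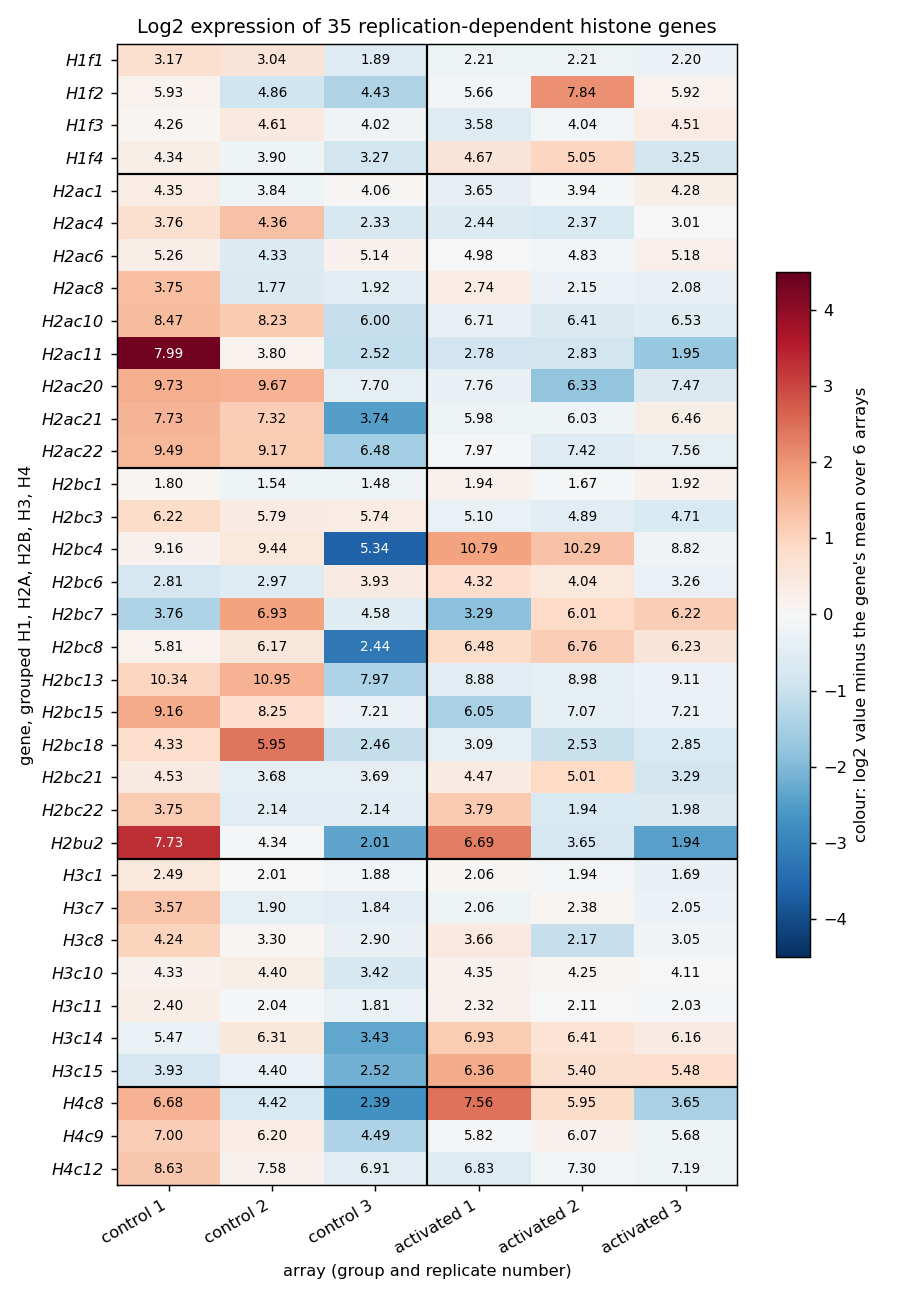
Log2 expression of each of the 35 histone genes (rows, by class) in each of the 6 arrays (columns). Numbers are the deposited values and colours show the deviation from the gene's own mean over the arrays. Control replicate 3 was the lowest array for 18 genes and the highest for none, and control replicate 1 was the highest for 18.

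Control replicates 1 and 3 lay at opposite ends in these genes. Control replicate 1 was the highest of the 6 arrays in 18 of 35 members, against 28.4% of all genes. Control replicate 3 was the lowest of the 6 arrays in 18 of 35 members (51.4%), against 19.6% of all genes, and the highest in 0 members, against 24.8% of all genes. The median deviation of the members from their own means was 0.71 in control replicate 1, 0.18 in control replicate 2 and -0.57 in control replicate 3, and -0.05, -0.11 and -0.25 in activated replicates 1, 2 and 3. Over all genes the deviation of control replicate 3 was 0.04. For the 18 members brighter than the median gene, the median deviation in control replicate 3 was -1.39. Genes of DNA replication did not share this: the median deviation of 48 S phase genes in control replicate 3 was 0.22, and 6 of them had their lowest value there. The 7 myogenic markers had a median deviation of -0.81 in that array, and 5 of the 7 had their lowest value there. Of the 3 leukocyte markers, Cd68 measured 5.01, 4.91 and 7.33 in control against 5.08, 5.31 and 6.66 in activated arrays, high in both arrays numbered 3. Ptprc, their defining marker, stayed between 2.36 and 2.75. Csf1r was at 3.98, 3.52 and 4.14 in control and at 3.39, 3.37 and 3.28 in activated arrays, so it was not high in both arrays numbered 3. The part of these differences in the histone values was not tested.

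Without control replicate 3 the median difference became -0.39 (-0.06 over all genes), with 11 members higher and 24 lower, and 3 small differences changed sign (H2bc7, H3c10 and H3c11). At an unadjusted p under 0.05, 2 members were then higher (H2bc6 and H3c15; 3.57% of all genes) and 12 were lower (3.26% of all genes). No member passed after adjustment (0% of all genes). The H2A median became -1.45, and that of H4 -0.74. Leaving out control replicate 1 instead turned the sign: the median was 0.26 (-0.03 over all genes), with 20 members higher and 15 lower, and the H2A median was -0.17. Without both arrays numbered 1, with the number as a block, the median was 0.16 (-0.07 over all genes). When both arrays numbered 3 were left out and the number was kept as a block, 6 members passed an adjusted p of 0.05 in limma on the 4 remaining arrays. All 6 were lower (0.911% of all genes were called lower): H2ac4, H2ac10, H2ac20, H2ac21, H2ac22 and H2bc13. None was higher (1.24% of all genes). At an unadjusted p under 0.05 the counts were 6 higher (8.86% of all genes) and 16 lower (6.3%). A fit of group and number to 4 arrays leaves little spread to estimate per gene. Calls in this setting therefore lean on the variance that limma pools over all genes.

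**Figure D2:**
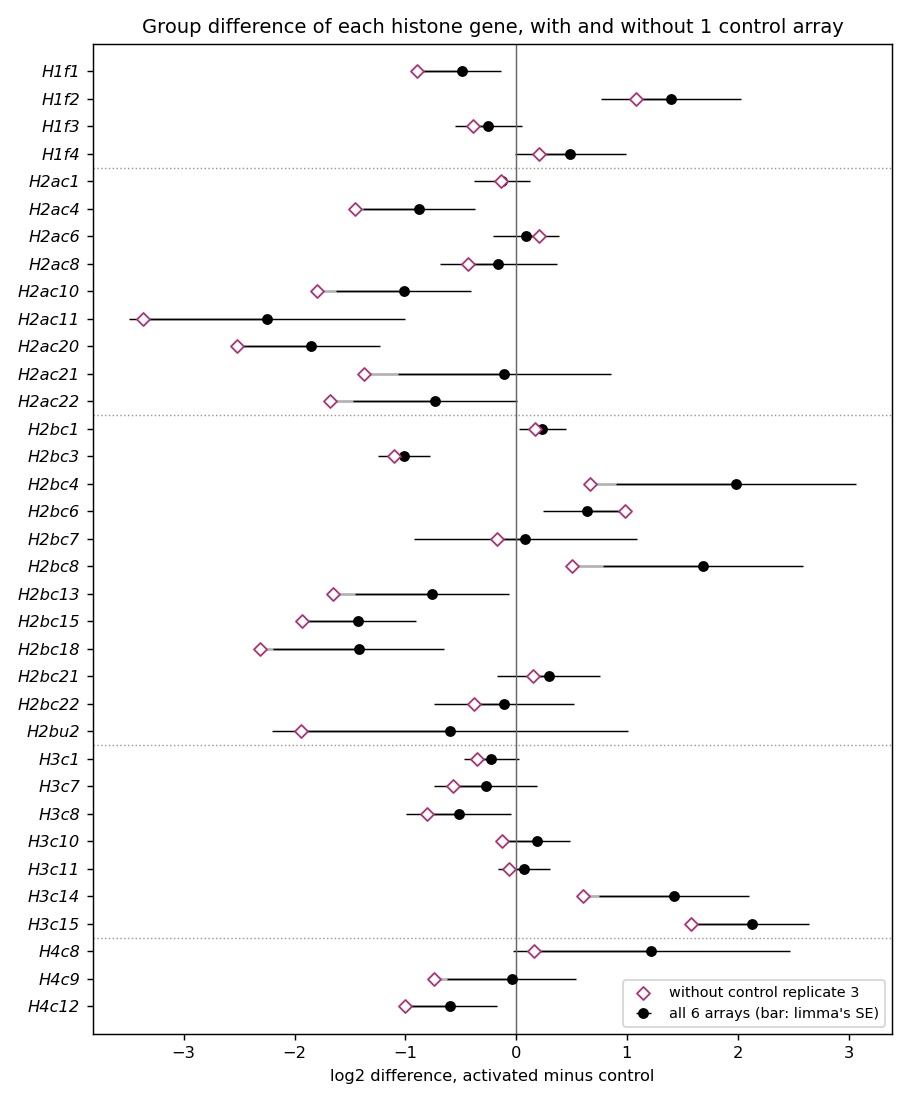
Log2 difference of activated minus control for each histone gene. Filled circles use all 6 arrays with limma's standard error, and open diamonds leave out control replicate 3. Most H2A genes lie further below 0 without that array, while H2bc4, H2bc8 and H3c14 lie closer to 0.

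H1 is the linker histone that sits on the DNA between nucleosomes. H1f2, a somatic H1 found in most cell types, measured 5.93, 4.86 and 4.43 in control against 5.66, 7.84 and 5.92 in activated arrays. Activated replicate 2 was the high array, and the groups overlapped. The difference was 1.40 ± 0.63 (SE), or 2.64-fold higher. H1f1 was at 3.17, 3.04 and 1.89 and at 2.21, 2.21 and 2.20, so that the activated arrays were almost equal and control replicate 3 lay below them. Its difference of -0.49 ± 0.36 became -0.90 without that array. H1f4 was at 4.34, 3.90 and 3.27 and at 4.67, 5.05 and 3.25, low in both arrays numbered 3. H1f3 had a difference of -0.25. The naming rule took 21 members. The other 14, among them H1f3, H2ac10, H2ac22, H2bc4 and H2bc8, are named where they appear because of values already seen.

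H2A pairs with H2B in the nucleosome, and its genes lay mostly on the lower side in activated cultures. H2ac20, on chromosome 3, measured 9.73, 9.67 and 7.70 in control against 7.76, 6.33 and 7.47 in activated arrays. Control replicates 1 and 2 stood above the other 4 arrays, and control replicate 3 fell among the activated ones. Its difference was -1.85 ± 0.62 (SE), 3.60-fold lower, and 5.72-fold lower without control replicate 3. H2ac10 was at 8.47, 8.23 and 6.0 and at 6.71, 6.41 and 6.53, and H2ac22 at 9.49, 9.17 and 6.48 and at 7.97, 7.42 and 7.56. In both, as in H2ac21, 2 control arrays were high and the third was the lowest of all 6.

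The difference of H2ac21 rested on the third control array. It measured 7.73, 7.32 and 3.74 in control against 5.98, 6.03 and 6.46 in activated arrays. The difference was -0.11 ± 0.96 (SE) over all arrays and -1.37 ± 0.28 without control replicate 3. H2ac11 was at 7.99, 3.8 and 2.52 and at 2.78, 2.83 and 1.95, with control replicate 1 far above the other 5 arrays. Its mean was 4.75-fold lower, with an SD of 2.86 among controls, and its difference of -2.25 was -0.64 without control replicate 1. H2ac6 was the exception in this class: it was at 5.26, 4.33 and 5.14 and at 4.98, 4.83 and 5.18, with a difference of 0.09. H2ac4 was at 3.76, 4.36 and 2.33 and at 2.44, 2.37 and 3.01, again with control replicates 1 and 2 high.

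Of the 9 H2A genes, 8 had their highest value in control replicate 1 (28.4% of all genes did). Within the arrays of 1 number, activated lay above control in 0 of 9 for number 1, in 3 for number 2 and in 7 for number 3. Over the 35 members these counts were 10 (44.3% of all genes), 15 (46.4%) and 25 (42%). H2ac8 was dim, at 3.75, 1.77 and 1.92 in control and at 2.74, 2.15 and 2.08 in activated cultures. H2ac1, which encodes a testis form of H2A matched by the symbol rule, was at 4.35, 3.84 and 4.06 and at 3.65, 3.94 and 4.28. Its groups overlapped.

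H2B genes divided into some that were lower and some that were higher. Values of H2bc3 lay close together within each group. It measured 6.22, 5.79 and 5.74 in control against 5.10, 4.89 and 4.71 in activated arrays, so the groups did not overlap. The difference was -1.01 ± 0.24 (SE), 2.02-fold lower, with values of -1.12, -0.90 and -1.02 in the 3 pairs and -1.10 without control replicate 3. H2bc15 was at 9.16, 8.25 and 7.21 and at 6.05, 7.07 and 7.21, where the groups met: the arrays numbered 3 were equal to 2 decimals, with the control a trace higher. Its difference was -1.43 ± 0.53. H2bc13 was at 10.34, 10.95 and 7.97 and at 8.88, 8.98 and 9.11, with the activated arrays close together between high and low controls. Its difference was -0.76 ± 0.70, and -1.65 without control replicate 3.

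H2bc4 and H2bc8 went the other way. H2bc4 measured 9.16, 9.44 and 5.34 in control against 10.79, 10.29 and 8.82 in activated arrays. Its difference was 1.99 ± 1.08 (SE), but 0.67 ± 0.55 without control replicate 3, or 1.59-fold in place of 3.96-fold. H2bc8 was at 5.81, 6.17 and 2.44 and at 6.48, 6.76 and 6.23, and its difference fell from 1.68 to 0.50 without that array. In both genes activated lay above control in each of the 3 pairs. The H2B genes not yet given had differences between -1.42 (H2bc18) and 0.64 (H2bc6). H2bc18 was at 4.33, 5.95 and 2.46 and at 3.09, 2.53 and 2.85, and control replicate 3 was again the lowest array. H2bc6 was at 2.81, 2.97 and 3.93 and at 4.32, 4.04 and 3.26, the only member of the 35 in which control replicate 3 was the highest control. H2bc21 was at 4.53, 3.68 and 3.69 and at 4.47, 5.01 and 3.29, and its groups overlapped. H2bc1, a testis form of H2B, was near the floor at 1.80, 1.54 and 1.48 and at 1.94, 1.67 and 1.92.

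H3 genes encode the core histone whose tail carries much of the chromatin marking. H3c15 measured 3.93, 4.40 and 2.52 in control against 6.36, 5.40 and 5.48 in activated arrays. The activated arrays all lay above the controls. The difference was 2.13 ± 0.51 (SE), or 4.37-fold higher, and 2.99-fold without control replicate 3. H3c14, whose promoter shares the 231-base run, was at 5.47, 6.31 and 3.43 and at 6.93, 6.41 and 6.16, and its groups overlapped in 1 control array. Its difference of 1.43 ± 0.68 was 0.61 without control replicate 3. The shared run lies before the annotated starts, and the likeness of the 2 transcripts was not analysed here. Since histone genes of a class are close copies, the 2 probe sets may not be separate measurements. The other 5 H3 genes were dim, with means from 2.01 (H3c1) to 4.14 (H3c10), and differed by -0.52 to 0.19. H3c1 was at 2.49, 2.01 and 1.88 and at 2.06, 1.94 and 1.69. H3c8 was at 4.24, 3.3 and 2.90 and at 3.66, 2.17 and 3.05, and H3c10 at 4.33, 4.40 and 3.42 and at 4.35, 4.25 and 4.11. H3c7 was at 3.57, 1.90 and 1.84 and at 2.06, 2.38 and 2.05, high in 1 control array. H3c11 was at 2.40, 2.04 and 1.81 and at 2.32, 2.11 and 2.03, a difference of 0.07.

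The 3 H4 genes, for the core histone that pairs with H3, were unlike each other. H4c12 measured 8.63, 7.58 and 6.91 in control against 6.83, 7.30 and 7.19 in activated arrays, a difference of -0.60 ± 0.43 (SE). H4c9 was at 7.0, 6.20 and 4.49 and at 5.82, 6.07 and 5.68, with activated arrays inside the control range and a difference of -0.04 (-0.74 without control replicate 3). H4c8 was at 6.68, 4.42 and 2.39 and at 7.56, 5.95 and 3.65. Within each numbered pair activated was higher, by 0.87, 1.52 and 1.26, but the numbers differed far more than the groups. Its difference was 1.22 ± 1.25, and its standard error with the number as a block was 0.21.

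How far the members varied with the replicate number, which the titles give, depended on the arrays used. In a fit of group plus number to all 6 arrays, the number took a median of 39.7% of each member's sum of squares, against 51.1% over all genes, and the group took 16.3%, against 17.6%. The number has more coefficients than the group, so it takes a larger share even of random spread. The shares of number and group thus cannot be compared directly. The number took over 50% in 14 members (40.0%, against 51.5% of all genes). At an unadjusted p under 0.05 in limma's F test, 8 members varied with number (22.9%; 19.3% of all genes), and none passed after adjustment (0% of all genes). Without activated replicate 3 these counts were 21 (24.2% of all genes) and 10 (4.67%), and without control replicate 3 they were 9 (18% of all genes) and 3 (0.258%). The share ran from 0.40% in H2bc6 to 99.1% in H2bc22.

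A few members varied mainly with number, in both groups. H2bu2, the member on chromosome 11, measured 7.73, 4.34 and 2.01 in control against 6.69, 3.65 and 1.94 in activated arrays. The number took 97.3% of its sum of squares, and both arrays numbered 3 were near the floor. In H4c8 the number took 87.8%, with the numbers in the same order. H2bc22 was at 3.75, 2.14 and 2.14 and at 3.79, 1.94 and 1.98, high only in the arrays numbered 1. H2bc7 had another order: it was at 3.76, 6.93 and 4.58 and at 3.29, 6.01 and 6.22, low in the arrays numbered 1. Both arrays numbered 1 stood above the other 4 in 7 members (13.4% of all genes), and no member had its highest value in an array numbered 3, while 33.6% of all genes did.

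**Figure D3:**
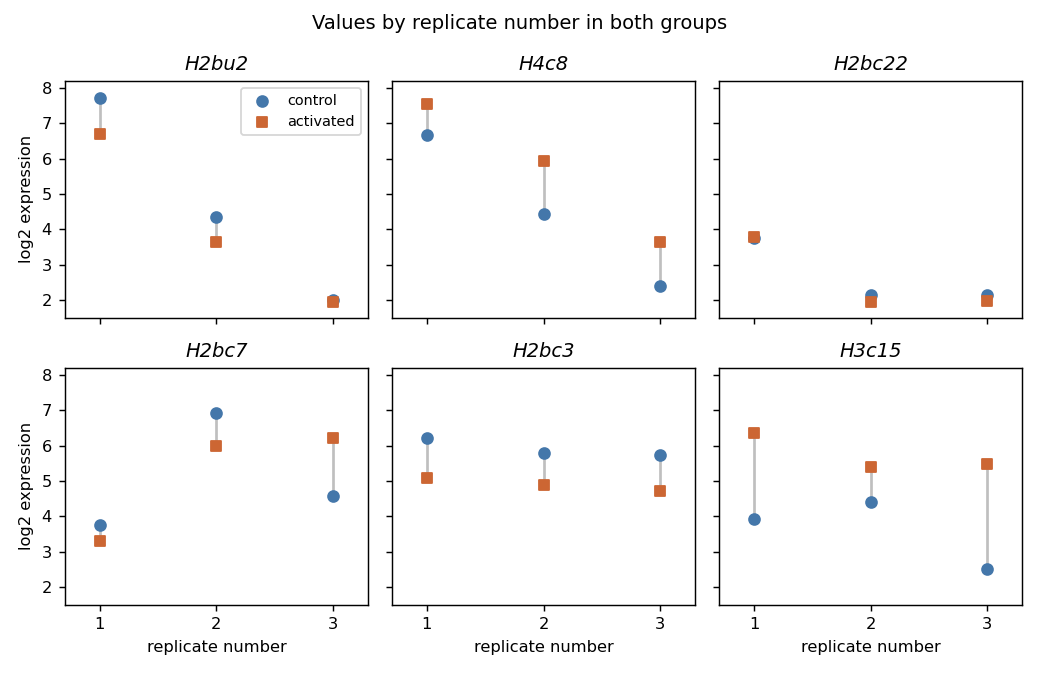
Log2 expression by replicate number, with control (circles) and activated (squares) of the same number joined by a grey line. In H2bu2 and H4c8 the numbers lie further apart than the groups. In H2bc22 and H2bc7 the arrays numbered 1 stand apart from the rest, while in H2bc3 and H3c15 the groups do not overlap.

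Several neighbouring genes had unlike values, and the 4 pairs below were picked after those were seen. Among RefSeq genes, 14 pairs of members lie next to each other, 3 of them known from the promoter table to start back to back. H2ac8 and H2bc8, which share the 179 bases shown above with an octamer, differed by -0.16 and 1.68. H2ac22 and H2bc22 share 239 bases. They differed by -0.73 and -0.11, and the number took 49.0% of the sum of squares in the first and 99.1% in the second. H2ac6 and its neighbour H2bc4 differed by 0.09 and 1.99, and H2ac20 and its neighbour H2bc21 by -1.85 and 0.29. These values describe the pairs; the difference within a pair was not tested.

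**Figure D4:**
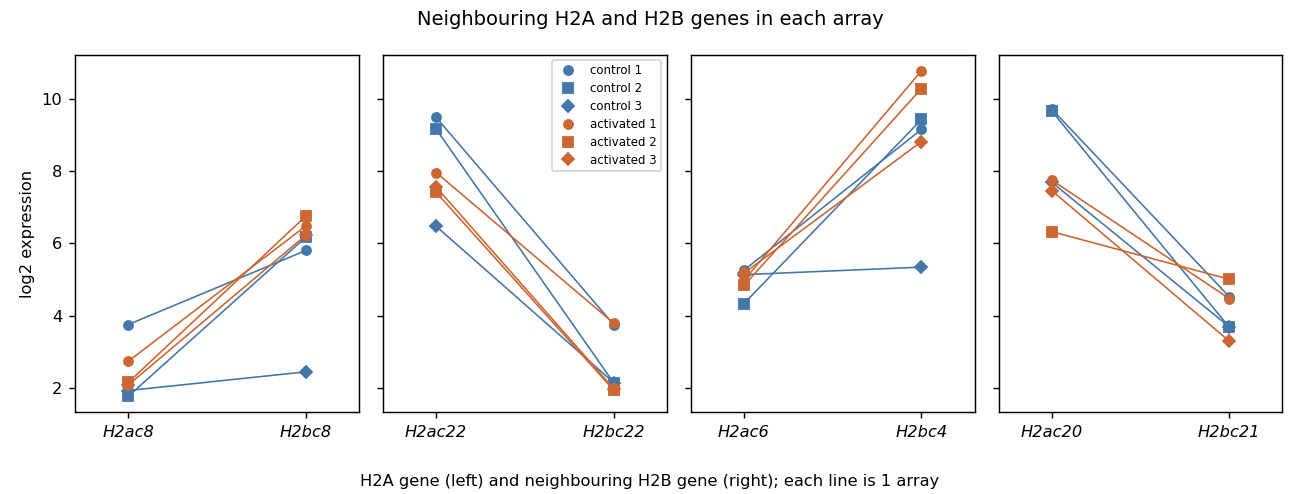
Log2 expression of 4 H2A genes and their neighbouring H2B genes, with each array as a line (blue control, orange activated, marker by replicate number). Control replicate 3 is low in H2bc8 and H2bc4 but not in H2ac6, and levels of different genes are not comparable with each other on this axis.

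Histone supply also depends on genes outside the family. The list for control of histone genes holds 19 measured genes for transcription, 3' end processing and decay of histone mRNA, among them Npat and the stem-loop binding protein gene Slbp. Of these, 8 were higher and 11 lower, where 59.7% of all genes were lower, with a median of -0.08 (-0.08 over all genes). None passed in limma (0 of 19, and 0% of all genes), and 1 was lower at an unadjusted p under 0.05 (3.42% of all genes). Eri1, a nuclease that trims the histone stem-loop, was at 6.65 ± 0.44 (SD, n = 3) among controls and 5.91 ± 0.29 among activated cultures (limma, adjusted p = 0.612). Cpsf2, of the 3' end cleavage complex, was at 7.01 ± 0.72 and 7.81 ± 0.13 (adjusted p = 0.648; 0.80 higher, and 0.44 without control replicate 3). The cap-binding gene Ncbp1 differed by 0.38 and the zinc finger gene Zfp473 by -0.38.

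Histone chaperones escort new histones to DNA. Of 26 measured, 17 were lower and 9 higher, where 59.7% of all genes were lower. Their median was -0.34 (-0.60 after quantile normalization, 22 lower). None passed in limma (0 of 26, and 0% of all genes), and 7 were lower at an unadjusted p under 0.05 (3.42% of all genes). Nasp, which holds soluble H3 and H4, was at 7.63 ± 0.37 (SD, n = 3) among controls and 6.34 ± 0.42 among activated cultures (limma, adjusted p = 0.330). Hjurp, the chaperone of the centromeric histone, was at 7.24 ± 0.39 and 6.32 ± 0.15 (adjusted p = 0.414). Ubn1, of the H3.3 chaperone complex, differed by 0.58 and Spty2d1 by 0.42.

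Replacement histones had 7 of 10 members lower (59.7% of all genes) and a median of -0.55 (9 lower and -0.83 after quantile normalization). At an unadjusted p under 0.05 in limma, 3 were lower (3.42% of all genes) and 0 higher (4.44%). Past the adjusted test there were 0 of 10 (0% of all genes). Macroh2a2, a large H2A variant, was at 7.01 ± 1.59 (SD, n = 3) among controls and 4.05 ± 0.90 among activated cultures (limma, adjusted p = 0.397). The linker variant H1f10 was at 6.02 ± 0.44 and 5.06 ± 0.27 (adjusted p = 0.465). The H3.3 genes had opposite signs: H3f3a differed by 0.52, and H3f3b, outside the naming rule, by -0.24 (-0.65 after quantile normalization). The H2A.Z genes, also outside that rule, were both lower. H2az1 differed by -1.34 ± 0.44 (SE) and H2az2 by -0.72 ± 0.68. H2ax, the variant phosphorylated at DNA breaks, differed by 0.25 ± 0.84 (SE). The sign of H2ax turned to -0.02 after quantile normalization, to -0.03 after cyclic loess and to -0.003 without control replicate 3. The 3 germ line linker histones were dim and differed by -0.27 (H1f6), -0.19 (H1f7) and 0.11 (H1f8).

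S phase genes, by contrast, lay nearly all on one side. Of 48 measured, 45 had a lower activated mean, the median difference being -0.80, and 21 had each activated array below each control array (7.4% of all genes). None passed in limma (0 of 48, and 0% of all genes), and 23 were lower at an unadjusted p under 0.05 (3.42% of all genes). Cdc6, which loads the replicative helicase, was at 5.57 ± 0.30 (SD, n = 3) among controls and 4.11 ± 0.24 among activated cultures (limma, adjusted p = 0.211). Pola1, the catalytic subunit of the polymerase that starts new strands, was at 6.23 ± 0.46 and 4.52 ± 0.40 (adjusted p = 0.252). The ribonucleotide reductase genes Rrm1 and Rrm2 were among the 3 higher genes, by 0.46 ± 0.55 (SE) and 0.27 ± 0.48, but by -0.06 and 0.01 without control replicate 3, and Rrm2 by -0.03 after cyclic loess. The S phase median was -0.84 without control replicate 3.

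**Figure D5:**
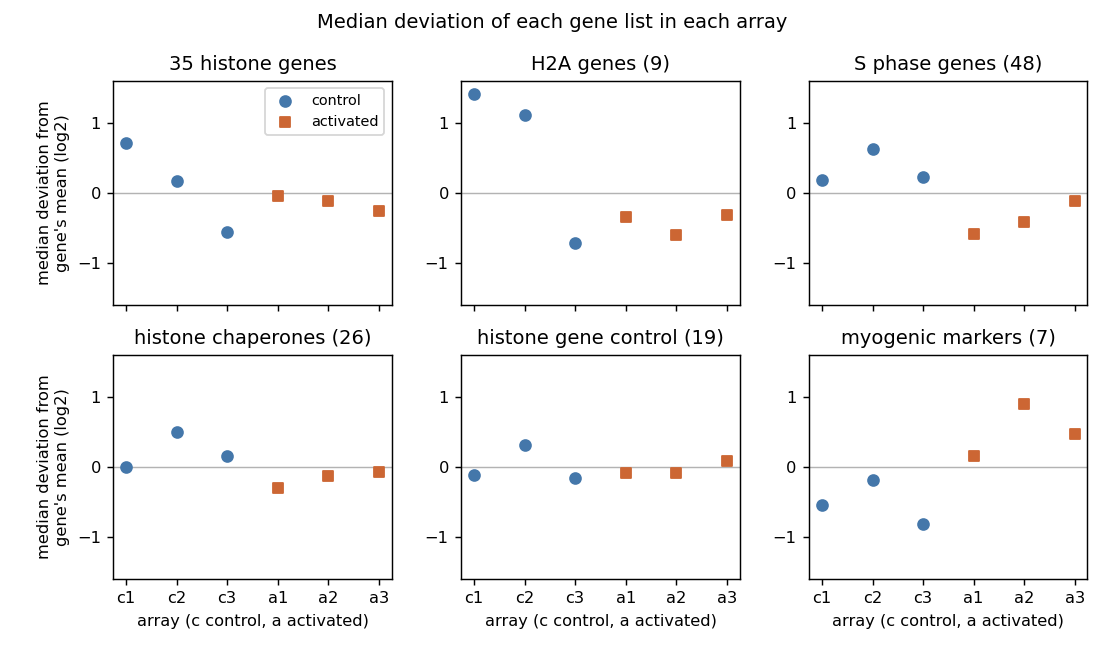
Median deviation of the genes of each list from their own means, in each array (c1 to c3 control, a1 to a3 activated, log2 units). Control replicate 3 is low for the histone genes (-0.57) and the H2A genes (-0.71) but above 0 for the S phase genes (0.22).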

How the data were processed

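Gene expression was measured on 6 arrays, 3 per group. The deposited table holds log2 expression values made by the authors, and the submitters' processing notes name RMA and Partek without saying what each did. The array's design and the grouping of probes were not given in the sources used here. Of 24479 probe sets, 23281 had 1 symbol in the platform annotation, 0 had several and 1198 had none. The brighter of repeated probe sets was kept (2 symbols), leaving 23279 genes.

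A linear model of group, or group plus replicate number, was fitted to all genes with limma 3.58.1 (R 4.3.3), with Benjamini-Hochberg adjustment. Errors are SDs over 3 cultures or limma's standard errors. The code was tested on simulated data. The number of arrays limits the precision, and p-values rest on the spread of these cultures alone.

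Deviations from the group means correlated at 0.38, 0.49 and 0.45 for the arrays numbered 1, 2 and 3. The numbers, taken from the titles, were treated as pairing the arrays in the fits with a block. Correlations between arrays of unlike number were not analysed here, so this pairing is an assumption. Unless a block is named, standard errors and p-values of group differences come from the fit of group alone, which ignores the pairing. The members and lists were chosen with earlier results of these data known. Named members were, per class, the 2 with the smallest p, the 2 with the largest share on number and the brightest, plus the 2 nearest no difference and the germ line genes H2ac1 and H2bc1. In other lists they were the 2 with the smallest p in each direction. Alternatives were other scalings, a brightness filter, the block and leaving out arrays.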

Additional observations from a re-analysis of the deposited data

How the results depend on the processing

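Leaving out arrays or pairs took the median difference of the 35 histone genes from -0.52 to 0.26 around its value of -0.13, and it was above 0 without control replicate 1 or without the arrays numbered 1. The medians for histone gene control and germ line histones also crossed 0. The chaperone median was -0.60 after quantile normalization, with or without the replicate block, and -0.59 after cyclic loess. The count of members at an unadjusted p under 0.05 was 4 (4.44% of all genes higher, 3.42% lower). It was 9 with the replicate block (9.63% and 7.01% of all genes) and 7 with quantile normalization and the block. Without single arrays it ran from 3 to 14, with 14 without control replicate 3 (3.57% and 3.26% of all genes). With the block it was 7 without the arrays numbered 2 and 22 without those numbered 3 (8.86% and 6.3% of all genes for the latter). Shares over all genes at the other settings were not analysed here. Past the adjusted test the count was 0, and 6 without the arrays numbered 3 (1.24% of all genes higher, 0.911% lower). In that setting 2 replacement histones, 2 chaperones and 12 S phase genes passed too. The block alone changed no call among the members or lists. For variation with number the count of 8 (19.3% of all genes) ran from 6 to 21 without single arrays: 13 without control replicate 2 (13.1% of all genes), 13 without activated replicate 2 (14.4%) and 21 without activated replicate 3 (24.2%). It was 5 without the arrays numbered 1 (16.8% of all genes) and 15 without those numbered 2 (14.6%). After adjustment the 0 became 2 of 18 without dim genes (1.44% of all genes kept), 3 without control replicate 3 (0.258%), 10 without activated replicate 3 (4.67%) and 2 without the arrays numbered 3 (0.421%), and stayed 0 without each other array. The cause of these changes was not tested.

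Small differences changed sign. After quantile normalization, with or without the block, H2ac1 was at 0.0091 and H2ax at -0.020. After cyclic loess H2ac1 was at 0.055, H2bc22 at 0.036, H2ax at -0.029 and Rrm2 at -0.031. After median centring H2bc22 was at 0.018 and H4c9 at 0.088. Without the arrays numbered 1, H2ac1 was at 0.156, H2ac8 at 0.269 and H4c9 at 0.527. Without those numbered 2, H2ac6 was at -0.119, H4c9 at 0.0094 and H3f3a at -0.096. Without those numbered 3, H3c11 was at -0.0018, H1f7 at 0.0048, H2ax at -0.559 and Rrm2 at -0.027. Without single arrays H2ac1 ran from -0.288 to 0.023, H2ac6 from -0.200 to 0.263, H2ac8 from -0.517 to 0.476, H2bc22 from -0.721 to 0.427, H2bu2 from -1.94 to 0.921, H3c11 from -0.065 to 0.229, H4c9 from -0.742 to 0.512, H1f7 from -0.297 to 0.017, H2ax from -0.304 to 1.29, Rrm1 from -0.062 to 0.897 and Rrm2 from -0.040 to 0.829. The alternative restricted to members with a distinct protein was not run. Signal over background was not analysed here, and it limits the dim members most.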
